A study of Mus musculus with 2 samples.

Results

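The genes described here are 32 genes of the integrated stress response and the unfolded protein response. They were taken by name as all non-control spots of the arrays whose gene name is on that list. All 32 were found, as 52 spots of 43 different probes, among 19220 genes measured in all. The mouse cell line mIMCD3, an epithelial line from the inner medullary collecting duct of the kidney, was given FGF23 (10 ng/mL, 4 h), or was left without FGF23. FGF23 is a bone-derived hormone. Total RNA from both conditions was hybridised together on each of 2 Agilent arrays with the dyes swapped, so that FGF23 RNA carried Cy3 on array 1 and Cy5 on array 2. The labels do not say whether the arrays came from separate cultures, so p-values measure only the spread between these arrays, which may be technical. Both conditions were of 1 cell line in serum-containing medium, and no vehicle is named for the unstimulated cells.

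The integrated stress response begins when kinases that sense amino acid shortage, misfolded protein in the endoplasmic reticulum (ER), haem shortage or viral RNA phosphorylate the translation factor eIF2. General translation then slows, while the messenger RNA of the transcription factor ATF4 is translated more, and ATF4 switches on genes for amino acid synthesis and stress adaptation. The unfolded protein response shares the eIF2 kinase PERK, while its other sensors, IRE1 and ATF6, act mainly through XBP1 and cleaved ATF6 on the genes of ER chaperones. The programmes therefore act in part through separate target genes, here ATF4-type genes and ER chaperone genes. Some of these genes are known to respond to other signals too, such as low oxygen.

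Each array held 59305 non-control spots, of which 48.2% and 48.7% were well above background in Cy3 and 54.2% and 55.2% in Cy5, and none was saturated. All 32 genes gave signals well above background in each of the 4 channel measurements. Across all genes the SD of the log2 ratio was 0.15 on array 1 and 0.13 on array 2, the ratios of the arrays had a Pearson r of -0.12 across genes, and 9 genes (0.0468%) passed limma's moderated test as higher and 0 as lower (Benjamini-Hochberg adjusted p under 0.05). Epithelial markers were measured for 7 of 7 genes, at mean log2 intensities from 10.22 (Epcam) to 16.61 (Krt18). Collecting duct markers were measured for 5 of 7, with Aqp3 and Elf5 not among those measured. Hoxb7 and Tfcp2l1 had mean log2 intensities of 12.25 and 9.70, but Gata3, Aqp2 and Scnn1a were dim (7.74, 7.52 and 7.19). Proximal tubule markers were measured for 3 of 6 genes, at 8.22 for Lrp2, 8.11 for Cubn and 6.82 for Slc22a6. Thick limb and distal tubule markers were measured for 2 of 4 genes, and intercalated cell markers for 2 of 5. Of fibroblast markers 1 of 5 was measured, Col1a1, which was dim (mean log2 intensity 7.11). Of endothelial markers 2 of 5 were measured, with Kdr bright at 11.34 and Pecam1 dim at 6.83. Of macrophage markers 2 of 6 were measured, with Csf1r bright at 11.46 and Cd68 at 8.40. The part of these markers in the results was not tested. The RNA was of 1 cell line in bulk, where fewer cells with a gene's RNA and less RNA per cell cannot be told apart.

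Of the 6 ATF4-type genes, 5 had mean ratios of 1.18- to 1.39-fold (FGF23 over unstimulated), while the 3 ER chaperone genes had 0.95- to 1.02-fold. None of the 32 genes passed limma's test over all genes at an adjusted p of 0.05 (0 of 32, against 0.0468% of all genes as higher). At an unadjusted p under 0.05, 7 of 32 were higher after FGF23, against 2.6% of all genes, and 0 of 32 were lower, against 1.31%. The 7 were Vldlr, Trib3, Ddit4, Chac1, Asns, Cebpb and Eif2ak3. On both arrays 12 of the 32 were above 0, against 23.9% of all genes, and 4 were below 0, against 22.3%. With median centring in place of the loess correction of dye bias, 0 members were above 0 on both arrays and 0 below. The same share over all genes was not counted in that setting, where 0% of all genes were higher at an unadjusted p under 0.05. At least 1.2-fold on both arrays, 4 of 32 were higher, against 0.416% of all genes, and 0 were lower, against 0.146%. Those 4 were Vldlr, Trib3, Ddit4 and Chac1. The 32 genes were chosen with earlier results of these arrays known, so their counts beside all genes are a description. Both FGF23 levels lay above both unstimulated levels for 11 members, against 17.4% of all genes, and below them for 4, against 15.3%. No member was at least 1.2-fold brighter in 1 dye on both arrays, which 0.957% of genes were in Cy5 and 0.12% in Cy3. The median log2 ratio, FGF23 over unstimulated, was 0.046 over the 32 genes (0.043 on array 1 and 0.068 on array 2), and -0.00068 over all genes. When limma's prior was made robust and allowed to follow intensity, 4 members passed, against 79 of all 19220 genes. In that limma fit the adjusted p was 7.61e-05 for Vldlr, 0.00123 for Trib3, 0.019 for Chac1 and 0.0196 for Ddit4. Whether these 4 genes are called thus depended on how their spread was estimated from 2 arrays.

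**Figure D1:**
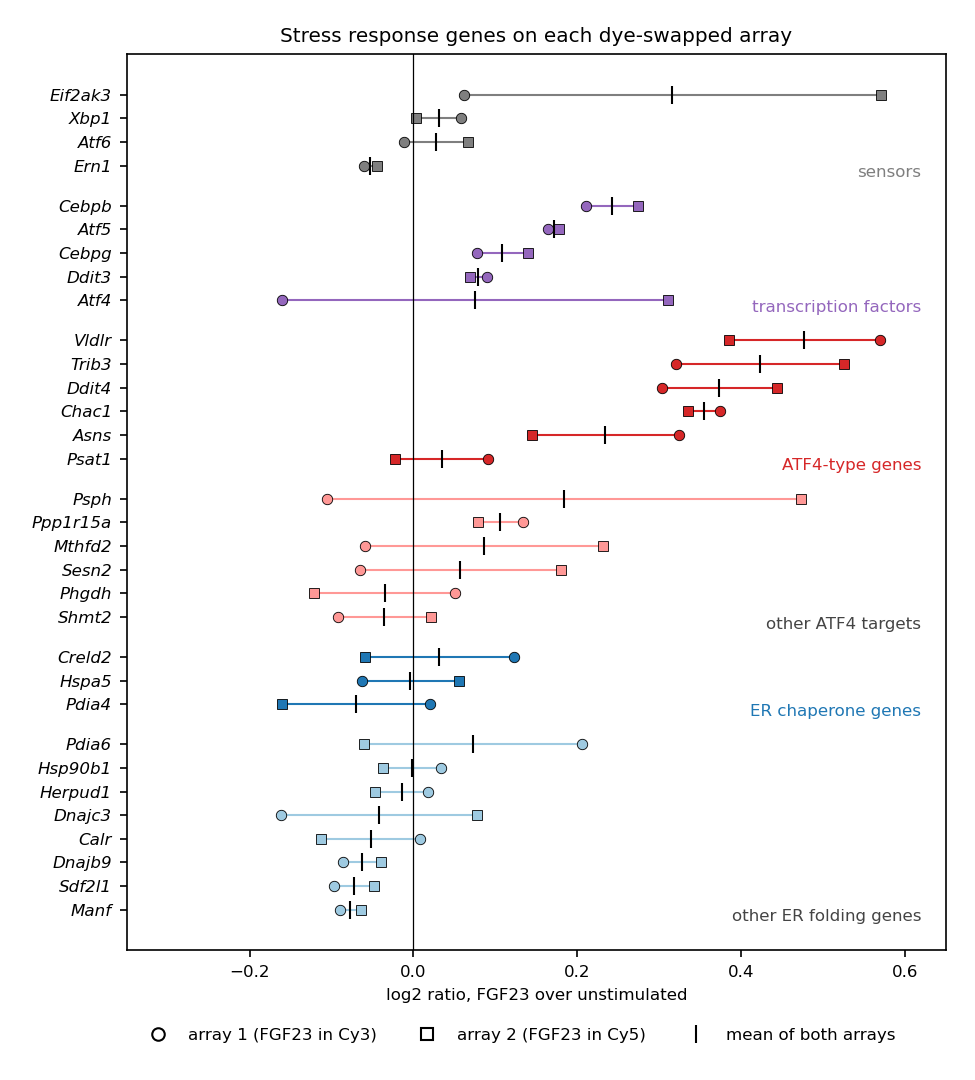
Log2 ratio of FGF23 over unstimulated cells (x axis) for the 32 genes (y axis, ordered by role), with circles for array 1, squares for array 2 and a bar for their mean. Vldlr, Trib3, Ddit4 and Chac1 lie between 0.30 and 0.57 on both arrays, while the 11 ER folding genes have means between -0.077 and 0.072.

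The ATF4-type genes were chosen as a group of 6, and the promoters of 4 of them are shown because their windows hold letters of the C/EBP-ATF response element, a sequence known to be bound by ATF4 with C/EBP partners. The element was searched as TTGCATCA and as TGATGNAAN, on both strands, where the general form includes most matches of the exact one. The windows run from 250 bases before to 50 bases after each transcription start in RefSeq (GRCm38.p6), 30 of the 32 genes had a window, and capitals mark the matches. The general form lay in windows of Chac1, Vldlr, Trib3, Asns and Herpud1, so of 5 members, and in 3.95% of 32851 windows of all genes. The exact form lay in windows of Chac1, Vldlr and Herpud1, and in 0.895% of all windows. No match was found in the windows of Ddit4 and Psat1, nor in a first window of Vldlr. A match is a string of letters and not a measured binding site.
Chac1 promoter, chr2:119350992-119351291, plus strand: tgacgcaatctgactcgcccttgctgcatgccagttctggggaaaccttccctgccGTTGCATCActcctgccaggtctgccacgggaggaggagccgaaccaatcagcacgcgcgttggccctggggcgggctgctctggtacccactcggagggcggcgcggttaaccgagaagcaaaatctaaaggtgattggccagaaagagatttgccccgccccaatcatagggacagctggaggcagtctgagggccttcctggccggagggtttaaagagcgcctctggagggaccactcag
Vldlr promoter, chr19:27216770-27217069, plus strand: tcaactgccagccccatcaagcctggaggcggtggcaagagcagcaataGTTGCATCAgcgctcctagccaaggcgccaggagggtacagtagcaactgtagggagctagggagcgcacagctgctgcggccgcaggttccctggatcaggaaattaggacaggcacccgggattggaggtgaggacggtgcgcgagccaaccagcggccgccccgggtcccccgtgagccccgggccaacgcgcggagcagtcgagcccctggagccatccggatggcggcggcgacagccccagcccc
Trib3 promoter, chr2:152344011-152344310, minus strand: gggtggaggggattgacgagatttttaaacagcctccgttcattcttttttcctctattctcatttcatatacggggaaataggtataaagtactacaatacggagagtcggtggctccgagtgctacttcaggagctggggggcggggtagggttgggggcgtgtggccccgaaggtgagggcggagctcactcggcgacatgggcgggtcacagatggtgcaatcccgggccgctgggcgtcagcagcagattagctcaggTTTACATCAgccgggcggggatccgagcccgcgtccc
Asns promoter, chr6:7693160-7693459, minus strand: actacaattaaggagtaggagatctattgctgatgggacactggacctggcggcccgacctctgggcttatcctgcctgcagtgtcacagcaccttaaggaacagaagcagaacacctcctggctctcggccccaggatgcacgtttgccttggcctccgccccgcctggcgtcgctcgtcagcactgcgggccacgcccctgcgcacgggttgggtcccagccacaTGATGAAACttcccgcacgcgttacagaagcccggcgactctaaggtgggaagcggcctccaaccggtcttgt

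Vldlr encodes a lipoprotein receptor of the LDL receptor family. Its normalised log2 intensity was 12.42 on array 1 and 12.27 on array 2 with FGF23, against 11.85 and 11.89 in unstimulated cells. Both FGF23 levels were above both unstimulated levels. The arrays gave log2 ratios of 0.57 and 0.38, so 0.48 ± 0.13 in the mean (SD, n = 2 arrays), a 1.39-fold difference with rank 22 of 19220 genes by mean log2 ratio. In limma's test its adjusted p was 0.119, with a 95% interval of the log2 ratio from 0.28 to 0.67. A second, dimmer probe of Vldlr had log2 ratios of 0.28 and 0.44, so both probes were higher on both arrays. The probe sequences below are shown because these spots carry the measured difference. They are those of the deposited files with positions on mm9, and capitals mark a polyadenylation signal (AATAAA or ATTAAA) found in the probe.
Vldlr brightest probe, chr19:27324050-27324109, plus strand: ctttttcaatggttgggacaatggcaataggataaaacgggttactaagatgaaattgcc
Vldlr second probe, chr19:27321104-27321163, plus strand: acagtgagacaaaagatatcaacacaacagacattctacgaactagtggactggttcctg
Trib3 probe, chr2:152163161-152163220, minus strand: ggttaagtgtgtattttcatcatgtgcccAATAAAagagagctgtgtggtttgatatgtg
Chac1 probe, chr2:119179990-119180049, plus strand: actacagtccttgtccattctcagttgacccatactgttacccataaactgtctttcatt
Ddit4 probe, chr10:59412486-59412545, minus strand: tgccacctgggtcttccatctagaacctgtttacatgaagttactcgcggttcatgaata
Asns probe, chr6:7625171-7625228, minus strand: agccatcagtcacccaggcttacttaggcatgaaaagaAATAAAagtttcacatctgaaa

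Trib3, a pseudokinase that is induced by ATF4 and CHOP and feeds back on them, had log2 intensities of 12.44 and 12.50 with FGF23, against 12.12 and 11.97 in unstimulated cells. The FGF23 levels were the higher ones throughout. Its log2 ratio was 0.42 ± 0.15 (SD, n = 2 arrays; 0.32 and 0.53), a 1.34-fold difference, with an adjusted p of 0.243 in limma's test and an interval from 0.23 to 0.62. Chac1, an enzyme that degrades glutathione, had 11.95 and 11.96 with FGF23, against 11.58 and 11.62 in unstimulated cells. It was the ATF4-type gene whose arrays lay closest together, at log2 ratios of 0.37 and 0.34 with a mean of 0.35 ± 0.027, or 1.28-fold, and an adjusted p of 0.38 in limma.

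Ddit4, an inhibitor of the growth-promoting kinase complex mTORC1, had log2 intensities of 13.55 and 13.13 with FGF23, against 13.24 and 12.69 in unstimulated cells. Here the levels of the conditions overlapped, since the spot was brighter in both dyes on array 1 than on array 2, while the ratio within each array was above 0. That ratio was 0.37 ± 0.099 (SD, n = 2 arrays; 0.30 and 0.44), or 1.30-fold, with an adjusted p of 0.35 in limma and an interval from 0.18 to 0.56. Asns, asparagine synthetase, had 13.83 and 13.75 with FGF23, against 13.51 and 13.61 in unstimulated cells. Its ratio of 0.23 ± 0.13 (0.32 and 0.14), or 1.18-fold, had an unadjusted p of 0.0215 and an adjusted p of 1 in limma.

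Psat1, an enzyme of serine synthesis, was the ATF4-type gene that stood apart from the other 5. Its log2 intensities were 13.25 and 13.16 with FGF23, against 13.16 and 13.18 in unstimulated cells, so the levels overlapped. The log2 ratio was 0.035 ± 0.080 (SD, n = 2 arrays), with a 95% interval from -0.15 to 0.22 in limma. Its second probe had -0.20 and 0.12, the opposite signs of the first on both arrays. The brighter probe lies nearer the transcript's 3′ end, starting at base 2226 of the transcript against base 750, and only the brighter one holds a polyadenylation signal.
Psat1 brightest probe, chr19:15979622-15979681, minus strand: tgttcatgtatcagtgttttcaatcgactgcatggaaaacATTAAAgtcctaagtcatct
Psat1 second probe, chr19:15991586-15991645, minus strand: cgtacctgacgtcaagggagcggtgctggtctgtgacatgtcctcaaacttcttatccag

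**Figure D2:**
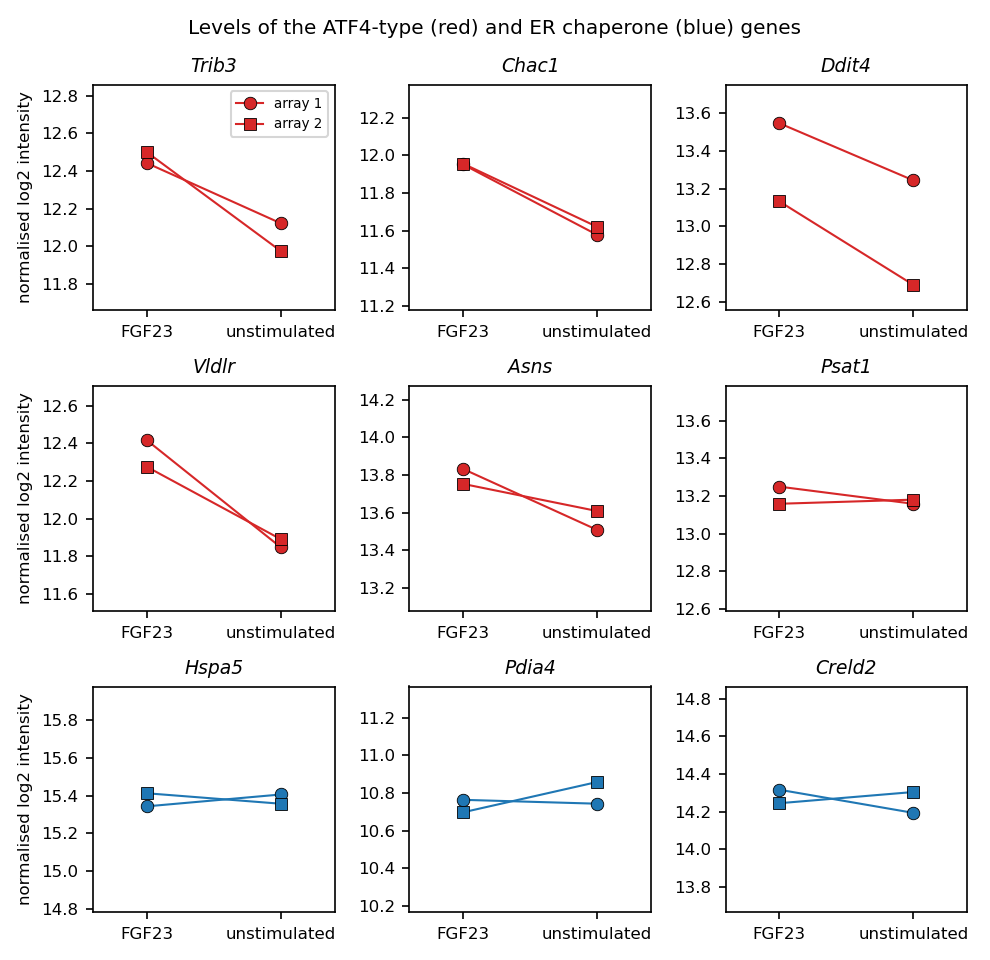
Normalised log2 intensity (y axis, 1.2 log2 units in each panel) of the 6 ATF4-type genes in red and the 3 ER chaperone genes in blue, with FGF23 on the left and unstimulated on the right; lines join the dyes of 1 array. The FGF23 end of the line is the higher one on both arrays for Trib3, Chac1, Ddit4, Vldlr and Asns, and on 1 array only for Psat1 and the chaperone genes.

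The ER chaperone genes were chosen as a group of 3, Hspa5, Pdia4 and Creld2. ER chaperone genes such as Hspa5 are known to be controlled through the ER stress response element. The element was searched as CCAAT followed by CCACG after 9 bases of any kind, on both strands. It lay in windows of Hspa5, Creld2, Hsp90b1, Dnajc3, Pdia6 and Calr, so of 6 members, all of them ER folding genes, and in 0.119% of all windows. A second form, ATTGG followed by CCACG after 1 base of any kind, lay in the window of Herpud1 and in 0.0365% of all windows. Neither form was found in the windows of Pdia4, Dnajb9 and Sdf2l1, and Manf had no window. Herpud1 was the 1 member with both an ATF4-type and an ER-stress-type match. The unfolded protein response element TGACGTGG lay in no member's window and in 0.676% of all windows. Capitals again mark the matches.
Hspa5 promoter, chr2:34771840-34772139, plus strand: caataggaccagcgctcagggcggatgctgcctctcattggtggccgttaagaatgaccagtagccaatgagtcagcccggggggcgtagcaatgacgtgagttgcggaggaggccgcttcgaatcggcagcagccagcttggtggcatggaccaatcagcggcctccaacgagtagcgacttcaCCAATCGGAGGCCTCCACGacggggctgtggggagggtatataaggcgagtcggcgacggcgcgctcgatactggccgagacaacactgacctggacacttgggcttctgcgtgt
Creld2 promoter, chr15:88819396-88819695, plus strand: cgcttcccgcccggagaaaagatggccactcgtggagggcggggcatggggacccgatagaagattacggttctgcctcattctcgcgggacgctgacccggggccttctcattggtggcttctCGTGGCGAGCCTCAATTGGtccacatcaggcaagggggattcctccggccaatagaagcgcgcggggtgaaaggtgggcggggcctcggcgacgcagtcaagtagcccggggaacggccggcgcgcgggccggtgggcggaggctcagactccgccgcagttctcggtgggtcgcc
Herpud1 promoter, chr8:94386179-94386478, plus strand: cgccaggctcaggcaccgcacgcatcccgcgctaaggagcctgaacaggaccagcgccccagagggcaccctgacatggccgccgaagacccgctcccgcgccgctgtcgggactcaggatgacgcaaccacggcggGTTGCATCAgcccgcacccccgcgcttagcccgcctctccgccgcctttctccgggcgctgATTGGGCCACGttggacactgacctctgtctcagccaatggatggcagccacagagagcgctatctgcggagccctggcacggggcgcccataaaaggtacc

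Hspa5, the main Hsp70 chaperone of the ER lumen (also called BiP), was among the brightest members. Its log2 intensities were 15.34 and 15.41 with FGF23, against 15.41 and 15.36 in unstimulated cells. The conditions overlapped, and the arrays gave log2 ratios of -0.063 and 0.056, averaging -0.0037 ± 0.084 (SD, n = 2 arrays). The 95% interval from limma ran from -0.19 to 0.19. Pdia4, a protein disulfide isomerase, had 10.76 and 10.70 with FGF23, against 10.74 and 10.86 in unstimulated cells. Its ratio of -0.070 ± 0.13 (0.021 and -0.16) had an interval from -0.26 to 0.12.

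Creld2, an ER protein that is secreted under stress, had log2 intensities of 14.32 and 14.25 with FGF23, against 14.19 and 14.30 in unstimulated cells, so the conditions overlapped. Its probe was printed in 10 spots per array, which shows the precision within an array. The spots' log2 ratios ran from 0.095 to 0.14 on array 1 (SD 0.017) and from -0.080 to -0.036 on array 2 (SD 0.012). The arrays thus differed by far more than the spots within them, although both measured the same comparison. Their mean was 0.032 ± 0.13 (SD, n = 2 arrays), with an interval from -0.16 to 0.23.
Hspa5 probe, chr2:34631913-34631972, plus strand: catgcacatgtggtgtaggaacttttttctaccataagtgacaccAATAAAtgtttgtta
Pdia4 probe, chr6:47746516-47746575, minus strand: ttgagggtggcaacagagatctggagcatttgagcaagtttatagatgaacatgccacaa
Creld2 probe, chr15:88656997-88657056, plus strand: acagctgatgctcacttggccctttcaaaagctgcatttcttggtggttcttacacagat

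Set side by side, the 6 ATF4-type genes had a median log2 ratio of 0.36 (0.32 on array 1 and 0.36 on array 2), and the 3 ER chaperone genes had a median of -0.0037 (0.021 and -0.059). The difference of the medians was 0.37, at 0.30 on array 1 and 0.42 on array 2. By the means of both arrays, the lowest ATF4-type gene, Psat1 at 0.035, was level with the highest chaperone gene, Creld2 at 0.032. At an unadjusted p under 0.05 in limma, 5 of the 6 ATF4-type genes and 0 of the 3 chaperone genes were higher, against 2.6% of all genes. Over all 32 members this count was 7. It was 4 with Agilent's processed signals, against 3.05% of all genes, and 0 with median centring, against 0%. The groups were picked with earlier results of these arrays known, so the difference is a description and was not tested.

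**Figure D3:**
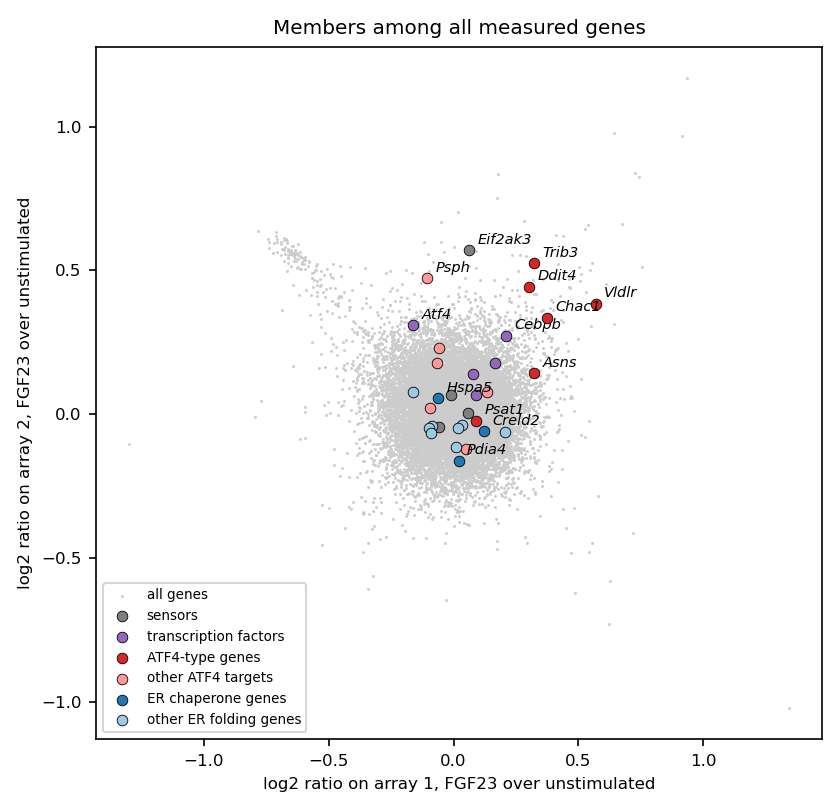
Log2 ratio of FGF23 over unstimulated on array 1 (x axis) and array 2 (y axis), with all 19220 genes in grey and the 32 members coloured by role. Trib3, Ddit4, Chac1 and Vldlr lie in the upper right, and Hspa5, Pdia4 and Creld2 within the cloud. Eif2ak3, Psph and Atf4 are high on array 2 alone, where the FGF23 RNA carried Cy5.

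The sensors did not pass the test. Eif2ak3, which encodes the eIF2 kinase PERK, had log2 intensities of 10.63 and 10.82 with FGF23, against 10.57 and 10.25 in unstimulated cells. Nearly all of this came from array 2, where the log2 ratio was 0.57 against 0.062 on the first, averaging 0.32 ± 0.36 (SD, n = 2 arrays, unadjusted p = 0.014, adjusted p = 1 in limma). Array 2 carried the FGF23 RNA in Cy5, and the mean log2 of Cy5 over Cy3 for Eif2ak3 was 0.25. Dye and array could not be told apart here. The other sensor genes were near 0. Ern1, which encodes IRE1, had levels of 8.49 and 8.47 with FGF23, against 8.55 and 8.52 in unstimulated cells (log2 ratio -0.052 ± 0.011). Atf6 had 7.88 and 7.84 with FGF23, against 7.89 and 7.77 in unstimulated cells (0.028 ± 0.055). Xbp1, the factor whose RNA is spliced by IRE1, had 13.48 and 13.46 with FGF23, against 13.42 and 13.45 in unstimulated cells (0.031 ± 0.038). A gene-level probe does not separate spliced from unspliced Xbp1 RNA or report kinase activity. Of the 4 probes of Ern1, 2 were not well above background.

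Of the transcription factors, Cebpb, a partner of ATF4, had the largest ratio. Its log2 intensities were 12.37 and 12.37 with FGF23, against 12.16 and 12.10 in unstimulated cells, with no overlap. The ratio was 0.24 ± 0.044 (SD, n = 2 arrays), or 1.18-fold, with an unadjusted p of 0.015 and an adjusted p of 1 in limma. Atf5, which is translated under stress like ATF4, had 12.24 and 12.13 with FGF23, against 12.07 and 11.95 in unstimulated cells. Its ratios of 0.16 and 0.18 (mean 0.17 ± 0.0089) lay closer together than those of the other 4 factors. Cebpg, another dimer partner, had 8.84 and 8.94 with FGF23, against 8.76 and 8.80 in unstimulated cells (0.11 ± 0.044). Ddit3, which encodes the pro-apoptotic factor CHOP, had 9.49 and 9.42 with FGF23, against 9.41 and 9.35 in unstimulated cells (0.079 ± 0.015). Cebpb, Atf5, Cebpg and Ddit3 were thus above 0 on both arrays without overlap, and none passed the test. Of all genes, 23.9% were above 0 on both arrays, and 17.4% had both FGF23 levels above both unstimulated levels.

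Atf4 itself had log2 intensities of 15.98 and 16.27 with FGF23, against 16.14 and 15.96 in unstimulated cells, so the conditions overlapped. Its ratio was below 0 on array 1, at -0.16, and above 0 on array 2, at 0.31 (mean 0.075 ± 0.33, SD, n = 2 arrays). The second, much dimmer probe had the same signs, at -0.098 and 0.20. On both arrays, then, Atf4 was brighter in the Cy5 dye whichever condition carried it, by a mean log2 of 0.24. ATF4 is controlled mainly at translation, which these arrays do not measure.

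Among the other ATF4 targets, Ppp1r15a, the eIF2 phosphatase subunit that ends the response, was the only one above 0 on both arrays, at 0.13 and 0.079 (0.11 ± 0.039, SD, n = 2 arrays). Psph, the last enzyme of serine synthesis, had -0.11 on array 1 and 0.47 on array 2 (0.18 ± 0.41), while its second probe had 0.26 and 0.029. The array with the larger ratio thus differed between the probes. At the brightest Psph probe the mean log2 of Cy5 over Cy3 was 0.29. Mthfd2, a mitochondrial folate enzyme, had -0.059 and 0.23, and Sesn2, a leucine sensor upstream of mTORC1, had -0.065 and 0.18. The serine and glycine enzymes Phgdh and Shmt2 had -0.035 ± 0.12 and -0.036 ± 0.080. The 3 probes of Phgdh had means of -0.035, -0.069 and -0.073. The serine and one-carbon genes Psat1, Psph, Phgdh, Shmt2 and Mthfd2 therefore had opposite signs on the arrays at their brightest probes, all 5 of them. Opposite signs were common over all genes too, of which 23.9% were above 0 on both arrays and 22.3% below.

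The 8 other ER folding genes spanned mean log2 ratios from -0.077 to 0.072. Manf, a secreted ER stress protein, had levels of 12.14 and 12.16 with FGF23, against 12.23 and 12.23 in unstimulated cells (log2 ratio -0.077 ± 0.018, SD, n = 2 arrays). Sdf2l1, a component of an ER chaperone complex, had 10.94 and 11.00 with FGF23, against 11.04 and 11.05 in unstimulated cells (-0.073 ± 0.035). Dnajb9, an Hsp40 co-chaperone of BiP, had 8.91 and 8.93 with FGF23, against 9.0 and 8.97 in unstimulated cells (-0.063 ± 0.033). These levels did not overlap, but the second, dimmer Dnajb9 probe had log2 ratios of the other sign, 0.082 and 0.075. Manf, Sdf2l1 and Dnajb9 were the 3 ER folding genes below 0 on both arrays, and none passed. The Hsp90 chaperone Hsp90b1 had -0.0016 ± 0.051, the lectin chaperone Calr had -0.052 ± 0.085, and Herpud1, a component of ER-associated degradation, had -0.014 ± 0.046. The co-chaperone Dnajc3 had -0.042 ± 0.17. Of all 11 ER folding genes, 0 were above 0 on both arrays, against 23.9% of all genes, and 3 were below, against 22.3%. The highest upper bound of a 95% interval in limma among the 11 was the 0.27 of Pdia6.

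Pdia6, a protein disulfide isomerase, showed how far probes of 1 gene could part. Its bright probe had log2 ratios of 0.21 and -0.061, and its dimmer probe had -0.27 and 0.087, the opposite signs on both arrays. In 5 of the 6 genes with several probes on 1 transcript the brightest probe was the one nearest the 3′ end, and Pdia6 was the exception. A polyadenylation signal lay in 9 of the 43 member probes and in 13.7% of all 55681 probes. The probe pairs of Pdia6 and Psph are shown since their ratios differed within each array. Over both arrays the 2 Psph probes had close means, 0.18 and 0.14, while those of Pdia6 were 0.072 and -0.09.
Pdia6 brightest probe, chr12:17291070-17291129, plus strand: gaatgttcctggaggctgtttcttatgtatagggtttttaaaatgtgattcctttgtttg
Pdia6 second probe, chr12:17291323-17291382, plus strand: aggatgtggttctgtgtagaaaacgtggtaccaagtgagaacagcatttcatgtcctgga
Psph brightest probe, chr5:130271441-130271500, minus strand: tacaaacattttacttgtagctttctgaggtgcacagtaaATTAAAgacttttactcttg
Psph second probe, chr5:130272308-130272367, minus strand: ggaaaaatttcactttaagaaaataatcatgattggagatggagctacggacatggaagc

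**Figure D4:**
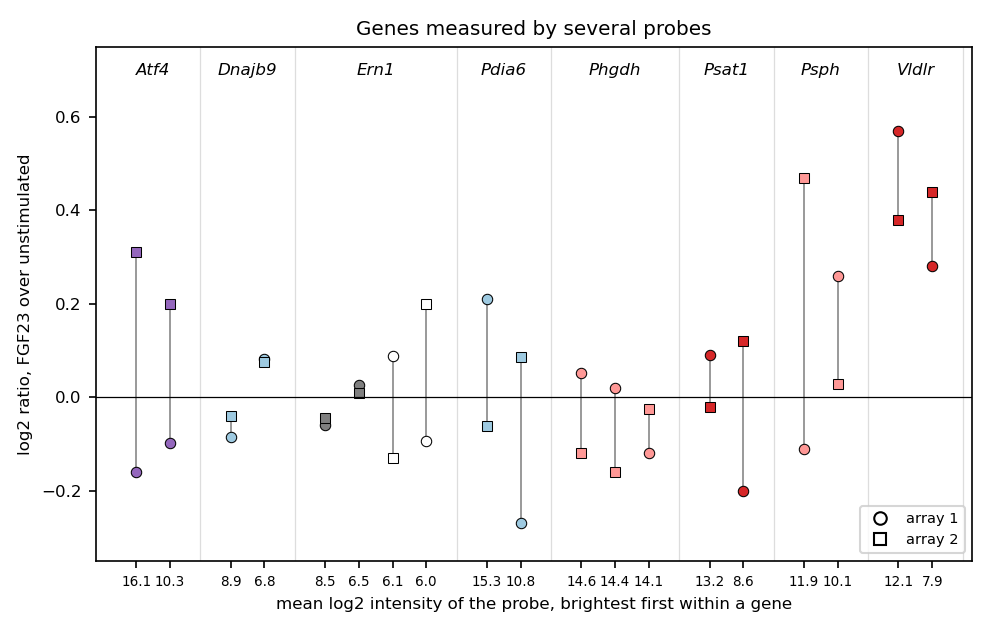
Log2 ratio of FGF23 over unstimulated (y axis) for every probe of the 8 genes with several probes, ordered from bright to dim within a gene and marked by mean log2 intensity (x axis); circles are array 1, squares array 2, and open symbols probes not kept. Both Vldlr probes are above 0 on both arrays, while the probes of Psat1, and those of Pdia6, have opposite signs on each array.

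Related genes outside the 32 were read from lists of the same pathways. These lists were chosen with earlier results of these data known, so their counts are a description. Of 20 further ATF4 and CHOP targets, 10 were above 0 on both arrays, against 23.9% of all genes, and 0 below, against 22.3%. Their median log2 ratio was 0.088 (0.093 on array 1 and 0.14 on array 2). At an adjusted p of 0.05 in limma 0 passed, while 5 were higher at an unadjusted p under 0.05, against 2.6% of all genes. Stc2, a stanniocalcin, had 0.32 and 0.47 (0.39 ± 0.10, adjusted p = 0.288 in limma), the stress-induced chromatin protein Nupr1 had 0.38 and 0.27 (0.32 ± 0.080, adjusted p = 0.567), and the alanine transaminase Gpt2 had 0.30 and 0.27 (0.28 ± 0.024, adjusted p = 0.77). The 9 amino acid transporters had a median of -0.03, with the glycine transporter Slc6a9 at 0.21 ± 0.13 and the leucine transporter Slc7a5 at -0.092 ± 0.020. The 20 cytosolic aminoacyl-tRNA synthetases had a median of -0.012, with the cysteinyl enzyme Cars at 0.21 ± 0.055 and the histidyl enzyme Hars at -0.14 ± 0.069.

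The 13 eIF2 kinases, eIF2 and eIF2B subunits and the second eIF2 phosphatase subunit had a median of -0.014, and 0 passed at either threshold. Of 30 further XBP1 and ATF6 targets 6 were above 0 on both arrays, against 23.9% of all genes, and 7 below, against 22.3%. Their median was 0.0024. The 1 gene among them at an unadjusted p under 0.05 was the disulfide isomerase Txndc5, lower at -0.22 ± 0.022 with an adjusted p of 1 in limma. Of all genes, 1.31% were lower at that unadjusted threshold. Cytosolic heat shock genes (10 measured, median -0.014) and mitochondrial chaperones and proteases (9 measured, median -0.00027) had none at an unadjusted p under 0.05.

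Ddit4, Vldlr and Stc2 are known to be induced by low oxygen as well, so other hypoxia-inducible genes are given beside them. Of 18 measured hypoxia-inducible genes outside the 32, 5 passed limma's test over all genes as higher (Bnip3, Mgarp and Ankrd37, and also Pdk1 and Slc16a3, which are named here after their values were seen), against 0.0468% of all genes. At an unadjusted p under 0.05, 15 of the 18 were higher, against 2.6% of all genes. All 18 were above 0 on both arrays, against 23.9% of all genes, with mean log2 ratios between 0.055 and 1.05 and a median log2 ratio of 0.30 (0.29 on array 1 and 0.44 on array 2). Bnip3 had 1.05 ± 0.16 at an adjusted p of 0.000668 in limma. The list was chosen with earlier results of these data known, so its counts are a description and it was not tested as a set. The part of low oxygen in the ratios of Ddit4, Vldlr, Trib3 and Chac1 was not tested. The letters TACGTG, which are only 1 form of the hypoxia response element, lay in the window of Ppp1r15a among the members and in 3.23% of all windows. Shorter and other forms of that element were not counted.

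**Figure D5:**
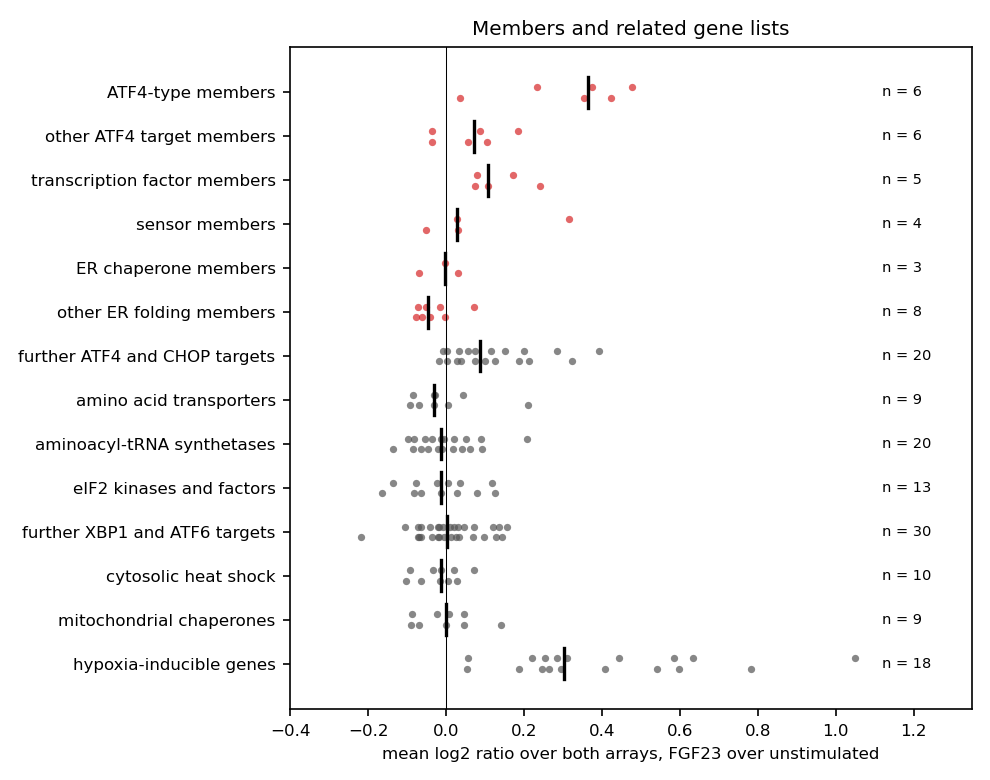
Mean log2 ratio of FGF23 over unstimulated over both arrays (x axis) for each gene of the 6 role groups of the members in red and 8 related lists in grey (y axis); bars mark medians. The ATF4-type members (median 0.36) and the hypoxia-inducible genes (median 0.30) lie to the right of the other groups, whose medians run from -0.047 to 0.11.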

How the data were processed

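The members and the related gene lists were chosen with earlier results of these data known. The file headers name Feature Extraction (11.5.1.1) as the authors' software, and the deposited columns give the intensity of each spot as mean signal and local background median in both dyes; the deposited log10 ratio of the dyes was not used in the tests. The direction of each ratio was taken from the dye labels. Background was corrected with normexp (offset 50) and dye bias by loess within each array in limma 3.58.1 (R 4.3.3), with control spots at weight 0 and outlier spots left out. Aquantile scaling gave the levels per channel. Spots were averaged per probe, and a probe was kept when well above background on both arrays in 1 condition at least, which left 26941 of 55681 probes. Each gene took its brightest kept probe, which gave 19220 genes. The mean log2 ratio was tested against 0 with lmFit and eBayes, two-sided, with Benjamini-Hochberg adjustment over all genes, on 1 residual and 11.9 prior degrees of freedom. SD is over 2 arrays, whose number limits the precision. The script was tested on simulated data. Members outside the 9 ATF4-type and ER chaperone genes were given in full when among up to 4 per direction with the largest ratio of one sign, or when sensors or transcription factors, and up to 3 genes per related list were named. Alternatives were Agilent's processed signals, offset 0, median centring, no filter and a stricter filter, the mean of kept probes, an intensity trend with a robust prior, and each array alone. Positions of probes within exons or untranslated regions were not analysed here.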

Additional observations from a re-analysis of the deposited data

How the results depend on the processing

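Of the 32 members, 0 passed the test under every processing alternative except limma's intensity trend with robust prior, under which 4 passed (Vldlr, Trib3, Chac1 and Ddit4, at log2 ratios of 0.48, 0.42, 0.35 and 0.37) and 79 genes in all. Over all genes 9 passed in the main setting, against 0 with Agilent's processed signals, 5 with offset 0, 0 with median centring, 17 with the mean of kept probes, and 10 or 15 when the filter on dim probes was made stricter or dropped. Members higher at an unadjusted p under 0.05 numbered 4, 6 and 0 with Agilent's signals, offset 0 and median centring. Of all genes, 3.05%, 3.14% and 0% were higher in those settings. Members numbered 7 or 8 in the other settings, against 2.43% to 3.25% of all genes. With median centring, 0 members were above 0 on both arrays and 0 below, against 12 and 4. In that setting 0% of all genes were higher at an unadjusted p under 0.05. The mean log2 ratios of Trib3 and Vldlr were still 0.41 and 0.46 there. The cause was not tested. Hspa5 turned to 0.0023 with Agilent's signals, and Psat1 to -0.0038 and Dnajb9 to 0.0081 with the mean of kept probes, which adds their second probes. The ATF4-type median ran from 0.32 to 0.36 and the median of all members from 0.043 to 0.068 on single arrays. The difference of the medians was 0.37 in each setting that used both arrays. The test is itself paired, since each array's ratio sets both conditions side by side, and no further replicate block was fitted.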

Other observations

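Genes across the whole array that carry the exact C/EBP-ATF element TTGCATCA in the promoter window, a grouping added after the data were seen, had a median log2 ratio of 0.035 (81 genes; 0.0027 on array 1 and 0.047 on array 2). Of these, 27 (33.3%) were above 0 on both arrays and 17 below, where all genes had 23.9% above and 22.3% below. Without the 3 members among them, the median over 78 genes was 0.035. The general form TGATGNAAN gave a median of 0.022 over 293 genes, and 0.021 over 288 genes without members, with 92 above 0 on both arrays and 52 below. The 17 genes with the ER stress response element had a median of -0.0075, with 2 above 0 on both arrays and 4 below, and of these genes 6 were members. Without the 6 the median over 11 genes was -0.017. No test was made of these groups.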
